A study of Mus musculus with 8 samples.

Results

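Conjugation enzymes make drugs, hormones, bilirubin and bile acids more soluble, and carboxylesterases split esters and amides, so that the liver can release the products into bile and blood. These enzymes were examined here in RNA from isolated liver mitochondria, in 4 classes: glutathione S-transferases (GST), UDP-glucuronosyltransferases (UGT), sulfotransferases (SULT) and carboxylesterases (CES). Members were the protein-coding mouse genes with symbols starting Gsta, Gstm, Gstp, Gstt, Gstz, Gstk, Mgst, Ugt1, Ugt2, Ugt3, Sult, Ces1, Ces2 or Ces3. The annotation holds 82 such genes. Of these, 53 had at least 1 count in the deposited table, out of 6449 nuclear genes, and 29 had no row. The table lists only transcripts with at least 1 count over the 8 libraries.

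Wild-type (WT) C57BL/6N mice of 12 weeks (12 W) and 65 weeks (65 W) were compared, with 4 libraries per age. The study describes its 12 W mice as female and does not give the sex of the 65 W mice. No treatment or allele distinguishes the groups. Livers were homogenised and mitochondria were enriched by differential and sucrose gradient centrifugation, and the study's methods describe a Benzonase treatment before the gradient to digest nucleic acids outside the mitochondria. The libraries hold the RNA of that fraction and not of whole liver, including nuclear-encoded RNA that remained with it. The labels call the 4 libraries of an age biological replicates and do not say whether each came from 1 animal. Poly(A)-primed cDNA was amplified with 8 barcodes and read on 1 Nanopore flow cell.

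The libraries held 104554 to 191092 counts at 12 W and 12630 to 105252 at 65 W. Mitochondria-encoded mRNAs took 78.9% of all counts, rows that copy mitochondrial genes 10.8% and other nuclear genes 10.1%. The nuclear counts, to which every share below relates, were 16297, 7604, 16948 and 20670 in 12W-1 to 12W-4 and 1523, 6109, 3257 and 11093 in 65W-1 to 65W-4. All 10 hepatocyte markers had counts, 10843 at 12 W and 3407 at 65 W in sum. A count of 0 allows up to 3 counts, which is 0.145 to 0.395 per 1000 nuclear counts at 12 W, and 0.270 to 1.97 at 65 W. The limit is widest in 65W-1 and 65W-3. Because amplified reads were counted without identifiers of single molecules, every interval from counts reflects counting error alone.

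As background, the classes differ in where their enzymes work. UGTs lie in the membrane of the endoplasmic reticulum and transfer glucuronic acid from UDP-glucuronic acid, CES enzymes lie in its lumen or are secreted, and both are made by ribosomes bound to it. Microsomal GSTs are membrane proteins, and Mgst1 is known from both the endoplasmic reticulum and the outer mitochondrial membrane. Alpha, mu, pi, theta and zeta class GSTs and the SULTs are made in the cytosol, where SULTs transfer sulfate from the donor PAPS. Gstk1 is found in mitochondria and peroxisomes.

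Members together held 1885 counts, 1428 at 12 W and 457 at 65 W. CES genes held 650 of them (12 of 17 annotated genes with a row), UGT genes 577 (15 of 21), GST genes 555 (17 of 23) and SULT genes 103 (9 of 21). Counts were concentrated on few genes. The 20 members with at least 20 counts held 88.3% of the member counts, 18 members had 5 to 19, and 15 had fewer than 5. Only 7 members were detected in all 8 libraries, namely Mgst1, Ces1c, Ugt1a7c, Ugt2b5, Gsta3, Ces1d and Ces1f. The number of members detected was 36, 30, 41 and 43 at the younger age and 14, 27, 18 and 37 at the older, lowest in the libraries with the fewest nuclear counts.

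**Figure D1:**
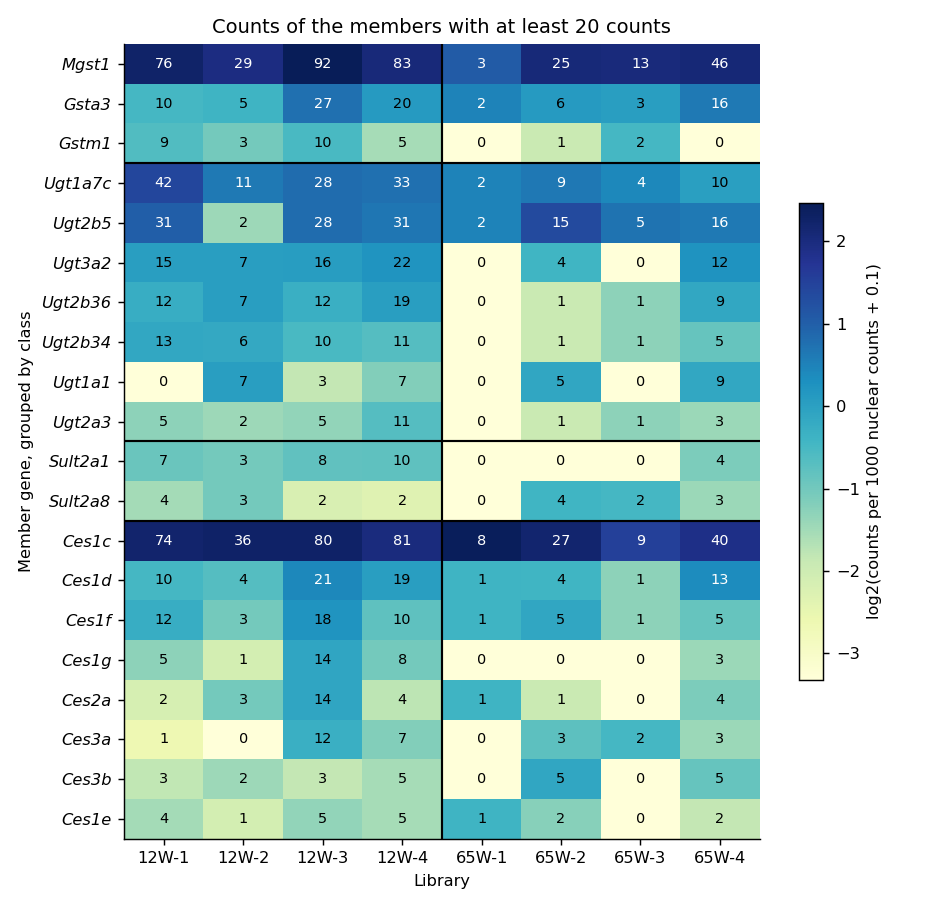
Counts of the 20 members with at least 20 counts over the 8 libraries (rows, grouped by class) in each library (columns). The numbers are counts and the colour is log2 of counts per 1000 nuclear counts plus 0.1. Mgst1 and Ces1c are the darkest rows in both ages, and zeros gather in 65W-1 and 65W-3.

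The Ugt1a genes show how the counting treats members that share sequence. This locus, on chromosome 1 (GRCm38, plus strand, 88070800 to 88220002 for the 6 genes counted), joins a first exon of its own for each enzyme to 1 common set of exons that starts at chr1:88215044-88215175. The first exon encodes the part that binds the substrate, and the common exons encode the part that binds UDP-glucuronic acid. The 30 bases around that junction are printed for the 4 Ugt1a genes with the most counts, because the lower-case bases are the end of the part that tells them apart and the capitals are the start of the common part. The transcript sequences are those of GENCODE for GRCm38, 5′ to 3′.
Ugt1a7c: aagccactttccaagGAATTTGAAGCCTAT
Ugt1a1: aagcccctatcccagGAATTTGAAGCCTAT
Ugt1a5: aagcccctctctcagGAATTTGAAGCCTAT
Ugt1a9: aagtcactttccaagGAATTTGAAGCCTAT

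After this junction the annotated Ugt1a1, Ugt1a5 and Ugt1a9 transcripts were identical to Ugt1a7c over all of their remaining 1311 nt. Their own parts upstream were 913, 892 and 879 nt long. The annotated Ugt1a7c transcript runs 1005 nt further at its 3′ end, to 88220002 in place of 88218997. A read that covers only the common exons therefore does not identify the gene.

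Ugt1a7c took 139 of the 195 Ugt1a counts. In 12W-1 to 12W-4 it had 42, 11, 28 and 33 counts, and in 65W-1 to 65W-4 it had 2, 9, 4 and 10. Ugt1a1, the enzyme that conjugates bilirubin, had 0, 7, 3 and 7 counts at 12 W and 0, 5, 0 and 9 at 65 W. Ugt1a7c had more counts than Ugt1a1 in all 8 libraries. Of the Ugt1a genes counted, only Ugt1a7c has the longer annotated 3′ end, and the part of this in its lead was not tested. The other Ugt1a genes appeared in few libraries. Ugt1a5 had 16 counts, of which 9 fell in 65W-4, and all 6 counts of Ugt1a9 fell in 12W-3. Ugt1a6a had 1 count and Ugt1a6b had 2. The sum over the locus varied less than its genes did at 12 W, with 2.64, 2.50, 2.42 and 2.13 counts per 1000 nuclear counts, and was 1.31, 2.29, 1.23 and 2.52 at 65 W, so that the groups overlapped.

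**Figure D2:**
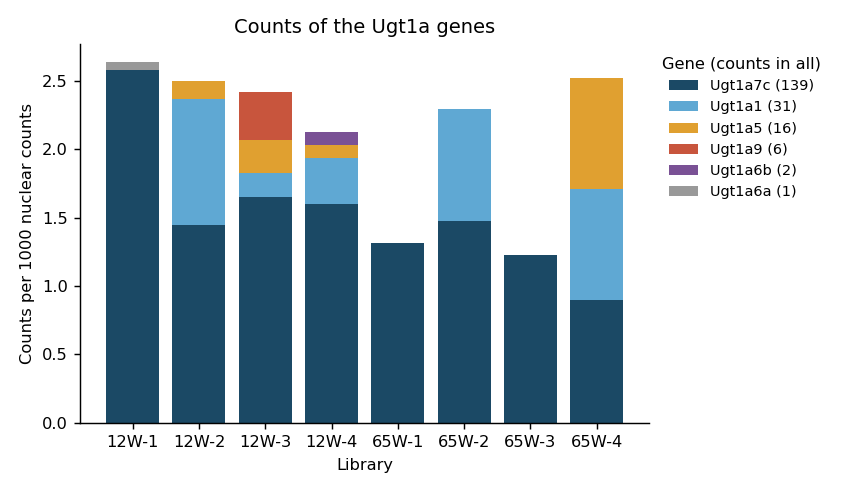
Counts of the 6 Ugt1a genes per 1000 nuclear counts, stacked per library. Ugt1a7c is the largest segment in each of the 8 libraries, and the remaining genes change from library to library. The sums lie between 1.23 and 2.64.

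Microsomal glutathione S-transferase 1 (Mgst1, chromosome 6, 138140316 to 138156755, plus strand) and carboxylesterase 1C (Ces1c, chromosome 8, 93099015 to 93131283, minus strand) led the members. Mgst1 conjugates glutathione and reduces lipid peroxides, and Ces1c is the carboxylesterase of mouse blood plasma. Mgst1 had 76, 29, 92 and 83 counts at 12 W and 3, 25, 13 and 46 at 65 W. Ces1c had 74, 36, 80 and 81 counts at 12 W and 8, 27, 9 and 40 at 65 W. Both had more counts than any other member in each of the 8 libraries. They ranked 22 and 24 among the 6449 nuclear genes by counts.

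Together they held 38.6% of the member counts at 12 W and 37.4% at 65 W. Per 1000 nuclear counts, Mgst1 was at 4.48 ± 0.729 at 12 W and 3.55 ± 1.06 at 65 W (SD, n = 4 each), and Ces1c at 4.48 ± 0.383 and 4.01 ± 1.07. By counts the pair was close, with 367 for Mgst1 and 355 for Ces1c, and Mgst1 had more counts in 5 of the 8 libraries. Per kb of transcript, Mgst1 had 314.6 counts and Ces1c 194.3, and Mgst1 was the higher in 7 of the 8 libraries. A read of such cDNA can cover a whole transcript, so counts do not grow with length as they do from sheared RNA, and values per kb favour short transcripts.

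The members that followed by counts were Ugt1a7c (139), Ugt2b5 (130), Gsta3 (89), Ugt3a2 (76) and Ces1d (73). Per kb, the order after Mgst1 and Ces1c was Ugt2b5 with 69.97 counts, Gsta3 with 61.1, Ugt1a7c with 43.0, Ces1d with 36.4 and Ugt3a2 with 32.7. The Ugt1a7c value depends on the length of its annotated 3′ end.

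**Figure D3:**
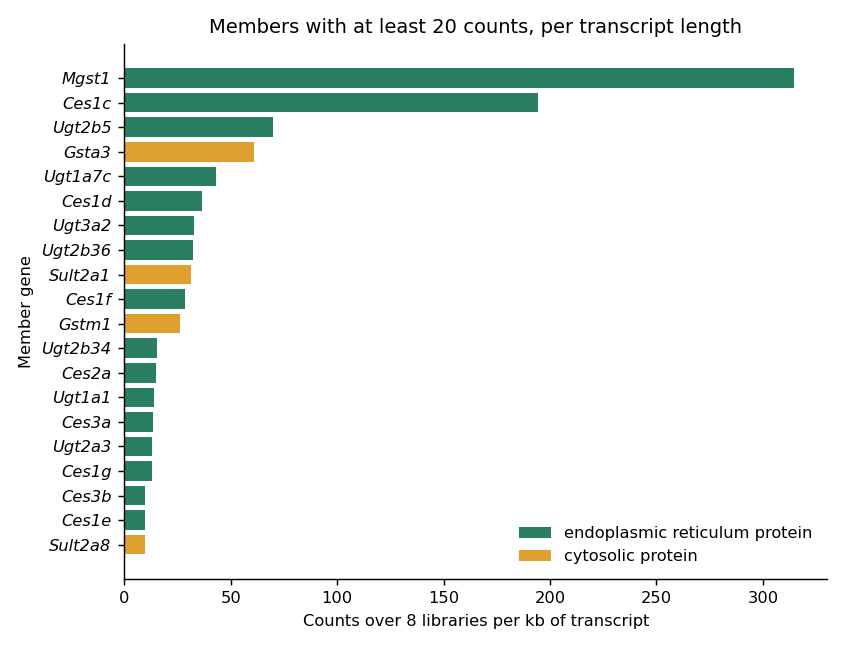
Counts over the 8 libraries per kb of transcript for the 20 members with at least 20 counts. Green bars are enzymes made at the endoplasmic reticulum and orange bars cytosolic enzymes; the 16 green bars include Mgst1 at 314.6 and Ces1c at 194.3, and the highest orange bar is Gsta3 at 61.1.

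Most member counts belonged to enzymes made at the endoplasmic reticulum. This grouping was made after the values were seen and is a description. The 29 genes of the Mgst, Ugt and Ces families held 1598 counts (84.8%), with a median of 23 per gene. The 23 genes of cytosolic GSTs and SULTs held 283 counts (15.01%), with a median of 6. Gstk1 held 4.

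The share of enzymes made at the endoplasmic reticulum was 86.0%, 85.6%, 84.6% and 84.9% from 12W-1 to 12W-4, against 76.9%, 86.0%, 78.4% and 84.0% from 65W-1 to 65W-4. The 2 lowest values came from 65W-1 and 65W-3, whose 95% Wilson intervals, 57.9% to 89.0% and 65.4% to 87.5%, include the values of the others. Divided by length, the medians per gene were 9.75 and 6.32 counts per kb. Without Mgst1 and Ces1c, the share was 75.3% of the counts and 63.6% of the summed counts per kb. With no library of whole liver, an enrichment in the mitochondrial fraction over the tissue was not measured.

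Many members lie side by side in the genome. The Ces1, Ces2, Ces3, Ugt1a, Ugt2, Ugt3a, Sult2a, Gstm and Gstt clusters (41 genes) held 71.5% of the member counts, and 1 gene led each. In the Ces1 cluster (chromosome 8, 93056728 to 93337308) Ces1c held 355 of 544 counts. In the Ugt2 cluster (chromosome 5, 86889767 to 87337195) Ugt2b5 held 130 of 294. In the Gstm cluster (chromosome 3, 107926334 to 108044894) Gstm1 held 30 of 40.

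Neighbours in these clusters are often close copies. Of the 53 members, 28 were at least 90% identical over at least 500 nt to the transcript of another gene, and these 28 carried 1040 of the 1885 counts. They include the 6 Ugt1a genes, which share exons of 1 locus. Some matched genes that are not members, as Gstm1 did with Gstm2-ps1 and Gstt3 with Gm20441. The assignment of counts within such pairs is therefore uncertain. Ugt2b5 was 95.5% identical to Ugt2b38 over 1861 nt, Ces1c 94.5% to Ces1b over 873 nt, Gstp1 98.2% to Gstp2 over 707 nt and Sult2a1 98.5% to Sult2a2 over 525 nt. Mgst1 had no such copy.

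The question of the comparison was whether members differed between 12 W and 65 W relative to the nuclear counts. No class passed the exact permutation test. All members together were at 22.8, 19.2, 27.1 and 21.8 counts per 1000 nuclear counts at 12 W and at 17.1, 22.3, 15.7 and 22.0 at 65 W. The lowest values came from 65W-3 and 65W-1 and the groups overlapped. The means were 22.7 ± 3.31 (SD, n = 4) and 19.2 ± 3.38 (SD, n = 4). The log2 difference, 65 W minus 12 W, was -0.24 with a 95% interval of -0.78 to 0.21 (two-sided exact permutation p = 0.20, adjusted p = 0.429 over 5 shares). The smallest p that 4 against 4 libraries allow is 0.0286, and 1 share alone could reach an adjusted p of 0.143 at best, so that this test could not call a single class. In such bulk samples, fewer cells that express a gene and less of its RNA per cell cannot be told apart.

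GST genes were at 6.73 ± 1.03 (SD, n = 4) per 1000 nuclear counts at 12 W and 5.65 ± 1.14 at 65 W, a log2 difference of -0.23 (95% interval -0.94 to 0.12, exact permutation p = 0.343, adjusted p = 0.429). The 65 W mean was drawn down by 65W-1 at 3.94, since the other 65 W libraries lay between 6.14 and 6.31. Mgst1 made up 66.1% of this class. Gsta3, a cytosolic enzyme known in mice for conjugating the activated form of aflatoxin, had 10, 5, 27 and 20 counts at 12 W and 2, 6, 3 and 16 at 65 W. Gstm1 had 9, 3, 10 and 5 counts at 12 W and 0, 1, 2 and 0 at 65 W. Its groups overlapped through 65W-3. Gstz1, an enzyme of tyrosine breakdown, had 15 counts, Gstp1 had 12 and the remaining cytosolic GSTs 1 to 7 each.

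UGT genes were at 7.79, 5.79, 7.02 and 7.16 per 1000 nuclear counts at 12 W and at 2.63, 6.88, 3.99 and 7.21 at 65 W. Here too 65W-1 and 65W-3 were lowest, while 65W-2 and 65W-4 lay within the 12 W range. The log2 difference was -0.48 (95% interval -1.40 to 0.31, exact permutation p = 0.229, adjusted p = 0.429). It was 0.03 without 65W-1 and 65W-3.

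Ugt2b5, of the family that conjugates steroids and bile acids, had 31, 2, 28 and 31 counts at 12 W and 2, 15, 5 and 16 at 65 W. The 2 counts of 12W-2 stand apart from the 15 counts of 65W-2, a library with fewer nuclear counts. Ugt3a2 had 15, 7, 16 and 22 counts at 12 W and 0, 4, 0 and 12 at 65 W. Ugt2b36 (61 counts) and Ugt2a3 (28) had at most 1 count in each of 65W-1, 65W-2 and 65W-3. In 65W-4 they had 9 and 3 counts, and the groups overlapped per 1000 nuclear counts for both.

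SULT genes were the smallest class, at 1.18 ± 0.232 (SD, n = 4) per 1000 nuclear counts at 12 W and 1.38 ± 0.420 at 65 W. The log2 difference was 0.30 (95% interval -0.50 to 1.22, exact permutation p = 0.343, adjusted p = 0.429). The highest value, 1.97 in 65W-1, came from 3 counts, and the other 65 W libraries were at 0.982 to 1.35. Without 65W-1 the log2 difference was 0.08. Sult2a1, which sulfonates hydroxysteroids and bile acids, had 7, 3, 8 and 10 counts at 12 W and 0, 0, 0 and 4 at 65 W. Sult2a8, a bile acid sulfotransferase of mouse liver, had 4, 3, 2 and 2 counts at 12 W and 0, 4, 2 and 3 at 65 W. Sult1a1, which acts on phenols, had 3, 1, 5 and 1 counts at 12 W and 1, 0, 1 and 2 at 65 W. The class mean thus joined genes with few counts whose values lay in opposite directions.

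CES genes were at 7.88 ± 1.76 (SD, n = 4) per 1000 nuclear counts at 12 W and 7.04 ± 1.92 at 65 W, a log2 difference of -0.16 (95% interval -1.24 to 0.39, exact permutation p = 0.629, adjusted p = 0.629). Ces1c made up 54.6% of the class. Ces1d, an enzyme that hydrolyses stored triacylglycerol, had 10, 4, 21 and 19 counts at 12 W and 1, 4, 1 and 13 at 65 W. Ces1f had 12, 3, 18 and 10 counts at 12 W and 1, 5, 1 and 5 at 65 W. Ces1g (31 counts), Ces2a (29), Ces3a (28), Ces3b (23) and Ces1e (20) completed the CES genes with at least 20 counts. In 12W-3, the CES share was 10.5, above the other 12 W libraries at 6.71 to 7.21, and Ces1g, Ces2a and Ces3a had 14, 14 and 12 counts there against at most 8 in any other library.

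**Figure D4:**
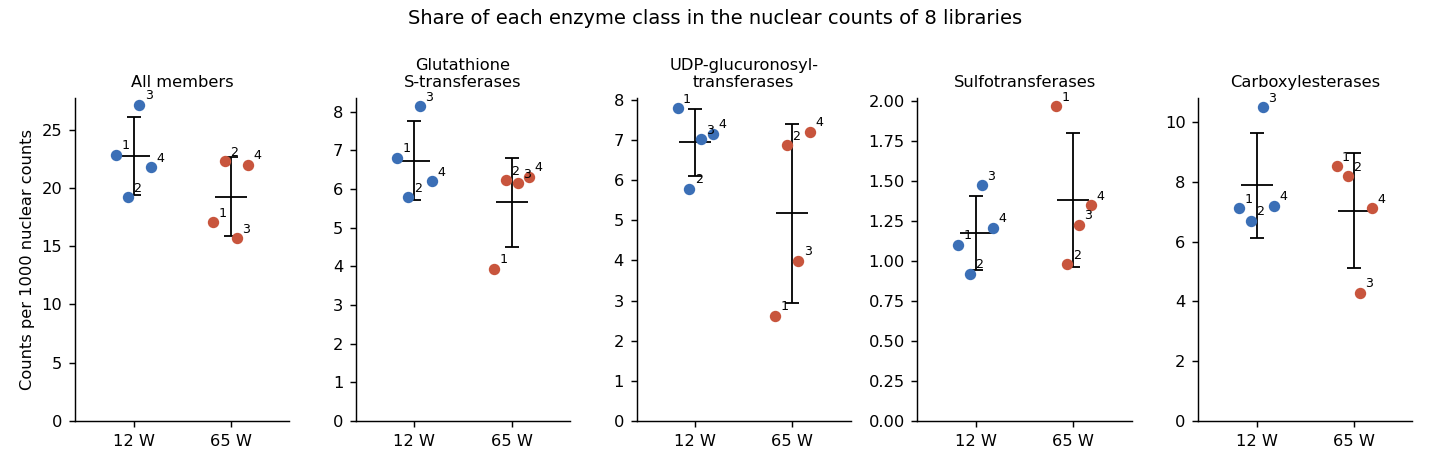
Counts per 1000 nuclear counts of all members and of each class, with 1 point per library, numbered by replicate, and the mean and SD (n = 4) per age group. The groups overlap in every panel, and 65W-1 and 65W-3 are the lowest 65 W points for all members and for UDP-glucuronosyltransferases.

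Gene by gene, edgeR's quasi-likelihood test was run over the 98 nuclear genes that passed its filter on low counts. It called 9 genes (9.18%) at an adjusted p under 0.05, 7 higher and 2 lower at 65 W. Of the members, 4 passed the filter and 0 of these 4 were called, also 0 at an unadjusted p under 0.05. Over all 98 genes, 18 had an unadjusted p under 0.05. DESeq2 and limma-voom also called 0 of the 4 members. The other 49 members did not pass this filter. With no filter on low counts, 0 of the 53 members were called and 11 had an unadjusted p under 0.05. That setting moved genes in general, with a median log2 difference of -1.32 over all 6449 nuclear genes against 0.03 in the main fit. The 11 are therefore not a result about the members.

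Mgst1 differed by -0.02 on the log2 scale (SE 0.21, adjusted p = 0.982, edgeR) and Ces1c by 0.02 (SE 0.24, adjusted p = 0.982, edgeR). Ugt1a7c differed by -0.43 (SE 0.37, adjusted p = 0.561, edgeR), and Ugt2b5 by 0.53 (SE 0.44, adjusted p = 0.561, edgeR). Single libraries moved both estimates. Ugt1a7c was at -0.13 without 65W-4, -0.26 without 12W-1 and -0.75 without 65W-2, and Ugt2b5 at 0.10 without 65W-2 and 0.22 without 12W-2. With no filter they were at -1.21 and -0.29, in a fit where the median over all 6449 genes was -1.32. With counts of subfamilies summed before the fit, which joins the close copies, the differences were -0.06 (SE 0.22) for Ces1, 0.27 (SE 0.34) for Gsta, -0.08 (SE 0.28) for Ugt1, 0.05 (SE 0.27) for Ugt2 and -0.50 (SE 0.40) for Ugt3, and 0 of these were called. The median over all 98 genes was 0.03 with the TMM scaling used here and -0.18 without a scaling factor. The difference of Ces1c had the opposite sign in 14 of 17 alternative settings and that of Mgst1 in 3 of 18, with no call in any.

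Of the 38 members with at least 5 counts, 4 had groups that did not overlap per 1000 nuclear counts. Over all 1591 nuclear genes with at least 5 counts, groups did not overlap in 6.22%, namely 5.28% lower and 0.943% higher at 65 W. Members with fewer counts at 65 W were Ugt2b34, Sult2a1 and Gstt1, and Sult3a1 had more. Ugt2b34 had 13, 6, 10 and 11 counts at 12 W and 0, 1, 1 and 5 at 65 W, or 0.677 ± 0.136 and 0.230 ± 0.193 per 1000 (SD, n = 4). Sult2a1 had the counts given above, or 0.445 ± 0.0409 and 0.0901 ± 0.1803 per 1000. Its gap was small, since 65W-4 was at 0.361 and 12W-2 at 0.395.

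Gstt1, which conjugates small halogenated hydrocarbons, had 2, 1, 1 and 3 counts at 12 W and 0 in each 65 W library. Sult3a1, an amine sulfotransferase, had 0, 0, 1 and 0 counts at 12 W and 1, 2, 1 and 2 at 65 W. The zeros of Gstt1 at 65 W and of Sult3a1 at 12 W allow up to 3 counts per library. Sult2a1 was at 0 in 65W-1, 65W-2 and 65W-3, where this limit was 1.97, 0.491 and 0.921 per 1000. Each of these lies above its 12 W mean of 0.445. The 0 of Ugt2b34 in 65W-1 allows 1.97 per 1000, above its 12 W mean of 0.677. None of the 4 genes passed the filter of the fit. Without 65W-1 and 65W-3, a choice made after seeing the data, 7 members did not overlap against 15.6% of the 1591 genes, and these 7 included the 4.

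Cytochrome P450 enzymes, many of which act on the same compounds before they are conjugated, were the closest group for comparison. They were taken as the protein-coding genes with symbols starting Cyp1, Cyp2, Cyp3 or Cyp4 (49 genes, 1713 counts). This rule also admits families with longer numbers and leaves out the other P450 families. Members had 1.04, 1.06, 1.15 and 0.964 counts for each P450 count at 12 W and 2.00, 1.6, 1.21 and 1.15 at 65 W. The ratio of 65W-1 rested on 26 member and 13 P450 counts, and that of 65W-3 on 51 and 42. Only 12W-3 and 65W-4 kept the groups from separating, at 1.153 and 1.151. The means were 1.05 ± 0.0777 and 1.49 ± 0.393 (SD, n = 4), and the log2 difference was 0.46 (95% interval -0.00 to 1.03, exact permutation p = 0.0571, adjusted p = 0.114 over 2 ratios). Without 65W-1 it was 0.31. The smallest exact permutation p for 4 against 4 libraries is 0.0286. After adjustment over 2 ratios, 1 ratio alone could therefore not pass the threshold. An alternative chosen after seeing the data left out Cyp3a41a and Cyp3a41b, P450 genes known to be higher in female mice. Both had fewer counts at 65 W, so that leaving them out had to lower the difference. The ratios were 1.33 ± 0.0292 and 1.56 ± 0.445 and the log2 difference was 0.18 (exact permutation p = 0.429).

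Relative to secreted hepatocyte proteins other than Mup, members were at 0.0737 ± 0.00599 and 0.0780 ± 0.0107 (SD, n = 4). The log2 difference was 0.09 (95% interval -0.13 to 0.53, exact permutation p = 0.571, adjusted p = 0.571). The ratio of members to this list was highest in 65W-2, at 0.0939.

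**Figure D5:**
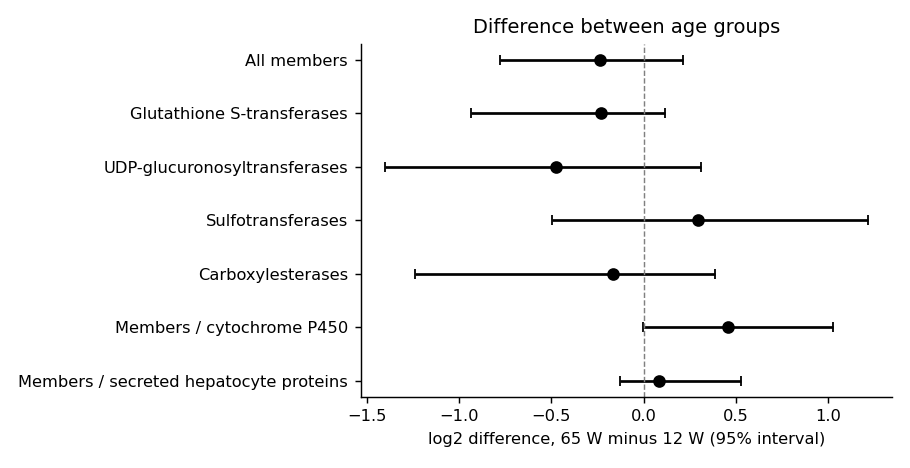
Log2 differences, 65 W minus 12 W, of the 5 shares and 2 ratios, with 95% intervals from inversion of the exact permutation test. All intervals include 0; the ratio to cytochrome P450 has the lower bound nearest to it, at -0.00.

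Several members are known to differ between the sexes in mouse liver, which matters because the sex is stated for the 12 W mice alone. Sult2a1, Sult2a2, Sult2a3, Sult2a5, Sult3a1 and Gstt3 are known as higher in females, and Gstp1 and Ugt2b1 as higher in males. Sult2a2 had 5 counts at 12 W and 0 at 65 W, and Sult2a3 had 8 and 0. Sult3a1 had 1 and 6, against the direction of Sult2a1 with 28 and 4. Gstt3 had 3 and 2, and Sult2a5 had 0 and 2. Gstp1 had 11 counts at 12 W and 1 at 65 W, and Ugt2b1 had 7 and 10.

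Sums over whole lists of such genes, and genes outside the members, gave larger values. The summed genes known as higher in females (24 of 29 with a row, 6 of them the members above) were at 10.03 to 13.7 per 1000 nuclear counts at 12 W. At 65 W they were at 1.23 to 3.97. Those known as higher in males (14 of 22, 2 of them members) were at 2.07 to 3.48 and 5.25 to 9.52. A1bg had 66, 38, 65 and 114 counts at 12 W and 0, 3, 3 and 12 at 65 W (log2 difference -2.36, SE 0.35, adjusted p = 0.000744, edgeR). Cyp3a41a fell by 2.31 on the log2 scale (SE 0.46, adjusted p = 0.00471, edgeR), and Mup3 rose by 1.77 (SE 0.27, adjusted p = 0.000744, edgeR). The 19 Mup genes summed to 31.7, 48.8, 35.7 and 66.9 per 1000 at 12 W and to 54.5, 76.4, 64.2 and 91.0 at 65 W. In these libraries age and sex cannot be told apart, for the Sult2a genes, Sult3a1 and Gstp1 as for the P450 denominator.

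Other genes of the same pathway were counted in lists. Cofactor supply and other conjugation enzymes (21 of 29 genes with a row) had 118 counts at 12 W and 56 at 65 W. They were led by Mat1a (60 counts), which makes S-adenosylmethionine, and included Cth (12), of cysteine synthesis for glutathione, and 0 passed the filter. They were at 1.42 to 3.02 and 1.31 to 3.34 per 1000. Other hydrolases (9 of 11) had 278 and 68 counts, led by the paraoxonase Pon1 (129), Aadac (105) and Lipa (23), and 0 of the 2 tested were called. Per 1000 nuclear counts they were at 4.16 to 5.31 at 12 W and at 0.307 to 4.15 at 65 W. The groups just failed to overlap, at 4.161 against 4.147. Phase I oxidoreductases other than P450 (25 of 28) had 396 and 120, led by Hsd11b1 (129), Adh1 (86) and Cyb5a (51), and 0 of 1 tested was called. They were at 5.39 to 7.40 and 2.63 to 6.13 per 1000.

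Uptake and efflux transporters (15 of 17) had 219 and 55 counts, led by the organic anion transporter Slco1b2 (123), with Slc10a1 (34), and 0 of 1 tested was called. They were at 2.76 to 5.02 and 1.31 to 2.97 per 1000, overlapping at the edge. Transcription factors of the xenobiotic response (10 of 15) had 26 and 8 counts, led by Rxra (12), Hnf4a (8) and Ahr (3). Of the 41 secreted hepatocyte proteins, 32 were tested and 2 were called, both higher at 65 W. These shares stand beside the 9.18% called over all tested genes.

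Markers of other liver cells were few beside those of hepatocytes. Per 1000 nuclear counts, hepatocyte markers were at 155.2 to 200.7 at 12 W and 124.3 to 172.5 at 65 W. Kupffer cell and macrophage markers (10 of 10 with a row) were at 1.36 to 2.37 and 1.31 to 3.68. Endothelial markers (7 of 8) were at 0.132 to 0.614 and 0 to 0.631, and stellate markers (6 of 6) at 0.245 to 0.629 and 0 to 1.23. Cholangiocyte markers (2 of 5) reached 0.0901 at most, B and T cell markers (5 of 7) 1.26 and erythroid markers (4 of 5) 2.82, the latter in a 12 W library. The ranges of the groups overlapped for every marker list, and their part in the members' values was not tested.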

How the data were processed

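The authors deposited counts per Ensembl transcript for 8 libraries, not normalized, from the Epi2Me Labs differential gene expression workflow. The submitters' processing notes name minimap2, SAMtools, edgeR and GRCm38 (mm10). The counting tool and annotation release are not given in the sources used here. Identifiers were matched to GENCODE on GRCm38, and 93 of 8688 rows (0.0939% of counts) had no match and were left out. Nuclear rows at least 80% identical over at least 100 nt to a mitochondrial gene (17, by BLAST 2.17.0) were also left out, and the others were summed per gene. The members and lists were chosen with earlier results of these data known. Members with at least 20 counts are named, with every count for the 3 leading genes of each class and for those not overlapping; of each list, up to 3 leading genes are named, and some items are not reported here.

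Differences were tested with edgeR 4.0.16 (R 4.3.3; filterByExpr, TMM, quasi-likelihood, Benjamini-Hochberg) and, for sums, with two-sided exact permutation tests over 70 assignments on log2 values with a pseudocount of 0.5. DESeq2 1.42.0 and limma 3.58.1 were alternatives. Wilson intervals have 95% confidence. The fits were tested on simulated data. Members in 12W-1 to 12W-4 held 2.06% to 2.52%, 1.64% to 2.25%, 2.48% to 2.97% and 1.99% to 2.39% of nuclear counts by these intervals, and in 65W-1 to 65W-4 1.17% to 2.49%, 1.89% to 2.63%, 1.19% to 2.05% and 1.94% to 2.49%. The counts over genes differed beyond sampling noise in each pair of libraries of an age (chi-square test), so that none was counted as a duplicate.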

Additional observations from a re-analysis of the deposited data

Results flagged for a closer look

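Over 54 groups of 4 libraries, 8 values stood apart by Dixon's criterion, which flags about 1 in 20 independent groups of normal values by chance. The groups here share counts, as Mgst1 is part of the GST share. A group whose other libraries are all at 0 is flagged at any count. The number flagged therefore cannot be set against that rate. The GST share of 65W-1 was 3.94 per 1000 nuclear counts (others 6.14 to 6.31), and Mgst1 was at 1.97 there, from 3 counts (others 3.99 to 4.15). The CES share of 12W-3 was 10.5 (others 6.71 to 7.21). The ratio of members to secreted hepatocyte proteins was 0.0939 in 65W-2 (others 0.0707 to 0.0743). Ugt3a2 was at 1.06 in 12W-4 (others 0.920 to 0.944), and Ugt2a3 at 0.532 there (others 0.263 to 0.307). In 65W-4, Sult2a1 was at 0.361 from 4 counts and Ces1g at 0.270 from 3 counts, while both were at 0 in the other 65 W libraries.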

How the results depend on the processing

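The log2 differences of the 5 shares and 2 ratios stayed on the same side of the threshold under each alternative run. Leaving out 1 library at a time gave -0.31 to -0.14 for all members, -0.30 to -0.09 for GST, -0.66 to -0.23 for UGT, 0.08 to 0.45 for SULT, -0.28 to 0.05 for CES, 0.31 to 0.57 for the P450 ratio and -0.00 to 0.13 for the secreted protein ratio. With nuclear counts times TMM factors as denominator, all members were at 0.01 and CES at 0.08, and the edgeR test put GST at 0.03. The smallest possible exact permutation p is 0.0571 with 4 against 3 libraries and 0.133 with 4 against 2. For the sign-flip test over replicate numbers it is 0.125. These runs could not pass the threshold of 0.05, so that their side of it was fixed in advance.

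Members called stayed at 0 in each of 19 alternatives. Genes called went from 9 of 98 tested to 4 of 133 with TMM over all rows, a fit that included mitochondrial rows. They were 4 of 6449 with no filter on low counts and 5 of 128 without 65W-2. The cause was not tested. With no filter, 11 of 53 members had an unadjusted p under 0.05, in a fit whose median log2 difference over all 6449 genes was -1.32. Requiring 10 or more counts per gene in each library kept no member, so that it gave no value. Members not overlapping went from 4 to 7 without 65W-1 and 65W-3.

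Same-numbered libraries did not deviate together (correlations -0.12, -0.17, -0.26 and 0.17 over 98 genes), so that no pairing by number was seen. A weak pairing could be missed at these counts. With the replicate block, edgeR called 10 nuclear genes and 0 members, and the sign-flip test left the differences at -0.24 for all members and 0.46 for the P450 ratio, with a smallest possible p of 0.125.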

Other observations

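Within a library, the counts of a member were nearly always on 1 of its transcripts. Of the 53 members, 15 had more than 1 transcript row. In 67 combinations of such a gene and a library with at least 2 counts, the counts lay on 1 row in 63 and on more than 1 in 4. The row that held most counts differed between libraries in 11 of the 15 genes, for example Gstm1, Ces2a and Sult2a8. Values per transcript are therefore not given here, and sums per gene were used throughout.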
